A study of Caenorhabditis elegans with 32 samples.

Results

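A set of 5 transcription factors of muscle and mesoderm was followed, namely hlh-1, unc-120, mef-2, hlh-8 and hnd-1. They were chosen by name, and all 5 of 5 were found among the 46748 genes of the count table by their WormBase symbols. The libraries came from C. elegans of the strain WBM1339, which carries a FLAG-tagged ribosomal subunit that the labels assign to muscle. RNA bound to the tagged ribosomes was pulled down with an anti-FLAG antibody (translating ribosome affinity purification, TRAP), and total RNA was taken from lysates of whole worms. Animals fed control bacteria with an empty vector (EV) were compared with animals fed dimt-1 RNAi bacteria, which target the gene for a methyltransferase of the small-subunit ribosomal RNA.

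All groups shared the strain, growth of the parents on OP50, bleaching, transfer of synchronized L1 larvae to the RNAi plates and collection as young adults. There were 4 groups of 4 libraries each, labelled as biological replicates, which gives 16 libraries of the 32 in the series. The other 16 are from a germline experiment and were not analysed here. The promoter that drives the tagged subunit is not given in the sources used here, so which muscle cells carried it cannot be said from the labels. Because the libraries are bulk RNA, fewer cells of a type and less RNA per cell cannot be told apart, and because TRAP is from muscle while total RNA is from the whole worm, the share of muscle in the animal enters every comparison of the fractions.

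Body wall muscle of C. elegans is specified in the embryo by HLH-1, the worm MyoD, together with UNC-120, a MADS-box protein related to serum response factor, and HND-1, a HAND-type protein, and these factors can in part stand in for one another. HLH-1 and UNC-120 persist in differentiated body wall muscle, whereas hnd-1 is known for early expression in embryonic muscle precursors and for a role in the somatic gonad precursors. HLH-8, the worm Twist, acts in the postembryonic mesodermal lineage of the M blast cell, from which vulval and uterine muscles arise, and in the enteric muscles. MEF-2 is the single MEF2-type MADS-box protein of the worm, is not needed for muscle formation there, and is known for acting with the kinase KIN-29 and the histone deacetylase HDA-4 in neurons.

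The factors hlh-1, hlh-8 and hnd-1 encode basic helix-loop-helix (bHLH) proteins, which bind E-boxes of the form CANNTG. The E-boxes upstream of these 3 genes are shown as a description only, and regulation of the genes through them was not tested. In the 500 bases before the annotated gene start, on both strands (CANNTG reads the same form on each), hlh-1 held 2 such hexamers, unc-120, hlh-8 and hnd-1 held 1 each and mef-2 held 0. Of 19973 protein-coding genes, 83.1% held at least 1 in the same window, with a median of 2. Neither CAGCTG nor CATATG was found upstream of any of the 5 genes, and 8.28% and 8.78% of all genes held them. Each E-box of hlh-1, hlh-8 and hnd-1 is written below 5′ to 3′ on the plus strand from the RefSeq sequence of WBcel235. The E-box is in capitals with up to 10 bases on either side, and that of unc-120 is not printed.
hlh-1, chrII:4518534-4518559: gggaagtgagCAATTGttgaagtgtc
hlh-1, chrII:4518549-4518573: gttgaagtgtCAGTTGtgctcatcg
hlh-8, chrX:8116265-8116290: atgtatactaCATTTGtaccatttta
hnd-1, chrX:11684102-11684127: aattcataaaCATTTGtagactgtat
The E-boxes of hlh-1 end 24 and 9 bases before the gene start, that of hlh-8 ends 176 bases before it and that of hnd-1 ends 443 bases before it. A match of the letters is a description and says nothing of binding.

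The genes lie on 3 chromosomes of the WBcel235 genome, all on the plus strand. The gene hlh-1 spans chromosome II from 4518574 to 4522528 with 4 annotated transcripts and 1196 exon bases, of which 68 are shared with B0304.4 on the other strand. The gene unc-120 spans chromosome I from 8460225 to 8463015 with 1 transcript and 1207 exon bases, and shares 0 exon bases with the noncoding D1081.17 that overlaps it. The gene mef-2 spans chromosome I from 9095957 to 9100862 with 1 transcript and 1882 exon bases, of which 20 are shared with gei-17 and 91 with the noncoding W10D5.4. The gene hlh-8 spans chromosome X from 8116457 to 8120351 with 2 transcripts and 880 exon bases, of which 38 are shared with C02B8.12. The gene hnd-1 spans chromosome X from 11684561 to 11685788 with 1 transcript and 990 exon bases, and no annotated gene overlaps it. These partners are on the opposite strand, and whether reads were counted by strand is not given in the sources used here, so reads from the shared bases could have been assigned to either gene. In the 16 libraries gei-17 had 724 to 7704 counts, B0304.4 had 160 to 1398 and C02B8.12 had 0 to 128, while W10D5.4 had 0 throughout.

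The libraries held 34794250 to 49782576 counts, of which the 5 factors took few, and the share of even numbers among counts of 1 to 20 was 78.1 to 90.0%, so that the number of fragments may be lower than the counts. Levels are given as CPM (counts scaled to a common library total, after TMM scaling over the 16 libraries), and 3 counts in a library corresponded to 0.0359 to 0.148 CPM. The TRAP libraries were unsteady at low counts. Among genes with a group mean of 20 to 200 counts, 29.3% in TRAP on EV and 12.1% in TRAP on dimt-1 RNAi were at 0 in one library and at 100 or more in another, against 0.0204% and 0.961% in total RNA. This range of counts is that of hlh-8, hnd-1 and mef-2 in TRAP. Replicate 3 of dimt-1 RNAi stood apart in total RNA. The targeted gene, listed as E02H1.1, was at 22.8 to 25.96 CPM in total RNA on EV, at 16.6, 19.7 and 15.2 CPM in replicates 1, 2 and 4 of dimt-1 RNAi, and at 24.2 CPM in replicate 3, within the EV range (log2 difference -0.33 ± 0.12, edgeR adjusted p = 0.228). In muscle TRAP the targeted gene was not lower on dimt-1 RNAi. It was at 19.5, 20.98, 15.9 and 33.8 CPM there and at 23.2, 10.8, 13.6 and 15.8 CPM on EV, with a log2 difference of 0.48 ± 0.32 (edgeR adjusted p = 0.794). A lower level of the target was thus seen in 3 of 4 total RNA libraries and not in TRAP, and dimt-1 RNAi below names the label of the libraries. The TRAP library of replicate 3 also stood apart within its group, with 204 genes at 1 to 20 counts and 36218 genes at 0. The other dimt-1 RNAi TRAP libraries had 3248 to 3674 and 30820 to 31518. The EV TRAP libraries had 205 to 535 and 35106 to 36257, close to replicate 3. Detection of low counts in TRAP thus differed between EV and replicates 1, 2 and 4 of dimt-1 RNAi, and for genes at low counts it cannot be told apart from the RNAi. Each comparison of dimt-1 RNAi with EV, and that of TRAP with total RNA on dimt-1 RNAi, is given for the 5 factors with and without the libraries labelled dimt-1 RNAi replicate 3.

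The muscle label of the TRAP libraries was checked with 12 genes of body wall muscle structure. All 12 of 12 were called higher in TRAP than in total RNA on either RNAi. Of all genes 17.6% were called higher on EV and 17.2% on dimt-1 RNAi. The median log2 difference of the 12 was 3.79 on EV and 3.58 on dimt-1 RNAi. Among the largest were unc-27 (troponin I) at 6.09 and 6.04, mup-2 (troponin T) at 5.82 and 5.51, and tnt-2 (troponin T) at 5.22 and 5.01. The summed level of the 12 genes was 82460 to 104700 CPM in TRAP on EV against 3096 to 3588 CPM in total RNA. Markers of other tissues were still present in TRAP. The summed level of 9 germline markers was 837 to 1216 CPM in TRAP on EV against 2101 to 2212 CPM in total RNA, and that of 6 intestine markers was 7920 to 10660 against 12870 to 15050 CPM. The summed level of 8 neuron markers was higher in TRAP, at 227 to 275 against 192 to 220 CPM, with snb-1 (synaptobrevin) called higher (log2 difference 0.56 ± 0.11, edgeR adjusted p = 0.00218), 1 marker called lower and a median of -0.23 over the 7 tested, while with library size only 0 were called higher and 6 lower.

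The 5 factors fell into 3 kinds by their levels. The genes hlh-1 and unc-120 were at 25.7 CPM or more in TRAP and at a few CPM in total RNA. The gene hlh-8 was low in both fractions and nearly undetected in total RNA. The genes hnd-1 and mef-2 were at a few CPM or less in both fractions.

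In TRAP on EV, hlh-1 was at 62.5, 32.5, 44.0 and 51.5 CPM in replicates 1 to 4, from 1681, 657, 1013 and 1600 counts. In total RNA on EV it was at 3.44, 3.79, 3.04 and 2.92 CPM, from 216, 220, 234 and 186 counts. All 4 TRAP libraries lay above all 4 total RNA libraries, with means of 47.6 ± 12.6 and 3.30 ± 0.40 CPM (SD, n = 4). In the libraries labelled dimt-1 RNAi hlh-1 was at 45.6, 61.98, 25.7 and 53.0 CPM in TRAP and at 1.96, 2.31, 4.72 and 1.84 CPM in total RNA, again without overlap. Replicate 3 was the lowest of the TRAP libraries and the highest of the total RNA libraries for this gene, so that the ratio of TRAP to total RNA between same-numbered libraries was 5.45 for replicate 3 and 23.2 to 28.8 for the others.

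For unc-120, TRAP on EV gave 73.4, 77.8, 53.0 and 95.4 CPM, from 1972, 1572, 1220 and 2964 counts. Total RNA on EV gave 5.70, 4.17, 6.66 and 5.37 CPM, from 358, 242, 513 and 342 counts. The fractions were again apart in every library, with means of 74.9 ± 17.4 and 5.47 ± 1.03 CPM (SD, n = 4). In the libraries labelled dimt-1 RNAi the levels were 65.0, 111, 64.5 and 58.9 CPM in TRAP and 4.69, 4.42, 5.23 and 5.41 CPM in total RNA. Replicate 2 was the highest TRAP library, and unlike hlh-1 the total RNA of replicate 3 lay among the others.

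For hlh-8, TRAP on EV held 52, 52, 77 and 0 counts, or 1.93, 2.57, 3.35 and 0 CPM, and total RNA held 38, 12, 13 and 9 counts, or 0.605, 0.207, 0.169 and 0.141 CPM. Of the EV TRAP libraries 3 lay above all total RNA libraries, and replicate 4 was at 0, where 3 counts would have been 0.0966 CPM. On dimt-1 RNAi TRAP held 59, 129, 82 and 31 counts, or 2.12, 4.75, 3.72 and 1.36 CPM, and total RNA held 28, 0, 0 and 17 counts, or 0.335, 0, 0 and 0.253 CPM. Here every TRAP library lay above every total RNA library. The 2 libraries at 0 had floors of 0.0385 and 0.0431 CPM, so the gene was not detectable there at this depth.

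For hnd-1, TRAP on EV held 76, 0, 28 and 0 counts, or 2.83, 0, 1.22 and 0 CPM, and total RNA held 292, 258, 354 and 236 counts, or 4.65, 4.45, 4.59 and 3.71 CPM. All EV TRAP libraries were below all EV total RNA libraries. On dimt-1 RNAi TRAP held 56, 32, 160 and 32 counts, or 2.01, 1.18, 7.25 and 1.41 CPM, and total RNA held 132, 218, 264 and 130 counts, or 1.58, 2.80, 3.80 and 1.93 CPM. The fractions overlapped on dimt-1 RNAi, and replicate 3 was the highest library in both.

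For mef-2, TRAP on EV held 173, 62, 117 and 42 counts, or 6.44, 3.07, 5.08 and 1.35 CPM, and total RNA held 265, 230, 229 and 204 counts, or 4.22, 3.96, 2.97 and 3.21 CPM. On dimt-1 RNAi TRAP held 114, 75, 0 and 84 counts, or 4.09, 2.76, 0 and 3.69 CPM, and total RNA held 301, 243, 245 and 194 counts, or 3.60, 3.12, 3.52 and 2.89 CPM. The fractions overlapped on either RNAi, and the TRAP values spread more widely (SD as a share of the mean 56.1% on EV and 69.9% on dimt-1 RNAi) than the total RNA values (16.6% and 10.3%).

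**Figure D1:**
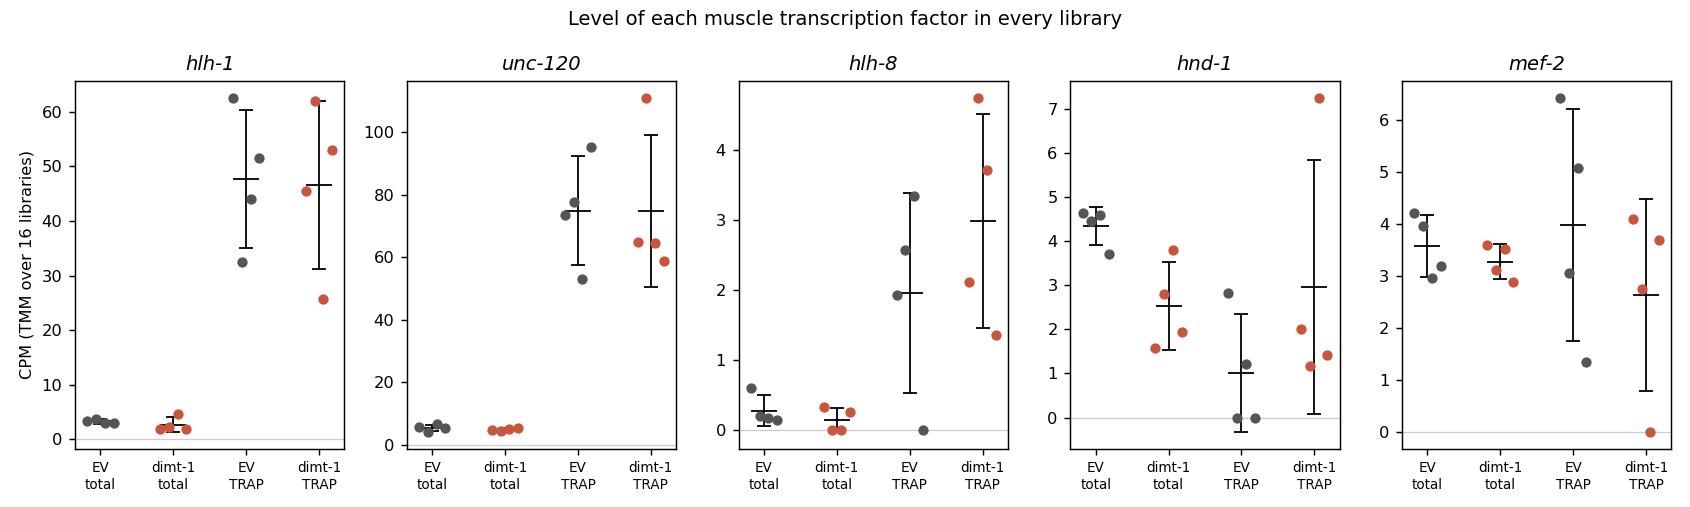
Level of each of the 5 factors in every library, in CPM (linear axis, a separate scale for each gene). Points are libraries, the horizontal dash is the mean of 4 and the bars are 1 SD, with EV in grey and dimt-1 RNAi in red. In TRAP the levels of hlh-1 (25.7 to 62.5 CPM) and unc-120 (53.0 to 111 CPM) lie far above total RNA, while those of hnd-1 and mef-2 do not.

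Per kilobase of exons, which allows genes to be compared, the order of the level in TRAP on EV was unc-120 (62.1 ± 14.4 CPM per kb), hlh-1 (39.8 ± 10.6), hlh-8 (2.23 ± 1.63), mef-2 (2.12 ± 1.19) and hnd-1 (1.02 ± 1.35; all SD, n = 4). The libraries of unc-120 and hlh-1 overlapped, at 43.9 to 79.0 and 27.2 to 52.3 CPM per kb, and so did those of the 3 lower genes, while both of the higher genes lay above all of the lower ones. In total RNA on EV the order was unc-120 (4.54 ± 0.85 CPM per kb), hnd-1 (4.39 ± 0.44), hlh-1 (2.76 ± 0.33), mef-2 (1.91 ± 0.32) and hlh-8 (0.319 ± 0.247). Here unc-120 and hnd-1 overlapped and each of the other neighbours was apart in all libraries. On dimt-1 RNAi the order in TRAP was unc-120 (62.01 ± 20.1 CPM per kb), hlh-1 (38.9 ± 12.9), hlh-8 (3.39 ± 1.74), hnd-1 (2.99 ± 2.91) and mef-2 (1.40 ± 0.98), and in total RNA unc-120 (4.09 ± 0.38), hnd-1 (2.55 ± 1.00), hlh-1 (2.27 ± 1.13), mef-2 (1.74 ± 0.18) and hlh-8 (0.167 ± 0.197). The levels of hnd-1 and hlh-1 in total RNA did not differ beyond their spread on dimt-1 RNAi.

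The first comparison asks which of these mRNAs were found on muscle ribosomes above their level in the whole worm. In the edgeR quasi-likelihood test, with Benjamini-Hochberg adjustment over all genes tested and an adjusted p under 0.05 as the threshold, 2 of 5 factors were called higher in TRAP on EV, where 17.6% of 13778 genes were called higher, 21.9% lower and 39.5% in either direction. The gene hlh-1 was higher by 3.87 ± 0.23 on the log2 scale (SE, edgeR adjusted p = 3.25e-07), a 14.6-fold difference, in 4 of 4 replicates. The gene unc-120 was higher by 3.78 ± 0.22 (edgeR adjusted p = 2.49e-07), a 13.8-fold difference, also in 4 of 4. Among all genes tested these log2 differences were at percentiles 96.0 and 95.8.

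The other factors did not pass the test on EV. The log2 difference of hlh-8 was 2.81 ± 1.46 (edgeR adjusted p = 0.171, 95% interval -0.05 to 5.66), with 3 of 4 replicates higher in TRAP. Intervals here and below use a normal quantile of the SE and are narrower than the edgeR test implies. That of mef-2 was 0.16 ± 0.62 (adjusted p = 0.897 in edgeR, interval -1.06 to 1.39), with 2 of 4 higher than the same-numbered total RNA library. That of hnd-1 was -2.09 ± 1.47 (adjusted p = 0.332 in edgeR, interval -4.97 to 0.79), with 4 of 4 lower. For 2 factors all TRAP libraries lay above total RNA and for 1 all of them lay below, beside 18.0% and 28.3% of all genes tested. The call of hnd-1 depended on the tool: limma voom with library quality weights gave -4.21 with an adjusted p of 0.0195.

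On dimt-1 RNAi 3 of 5 factors were called higher, where 17.2% of 14785 genes were called higher, 10.9% lower and 28.2% in either direction. The log2 difference of hlh-1 was 4.12 ± 0.37 (edgeR adjusted p = 4.3e-06), that of unc-120 was 3.93 ± 0.22 (edgeR adjusted p = 5.32e-08) and that of hlh-8 was 4.33 ± 1.35 (edgeR adjusted p = 0.033), each higher in 4 of 4 replicates. These 3 genes had no overlap between the fractions, as did 17.7% of all genes in this direction and 17.9% in the other. The call of hlh-8 rested on few counts and was lost without replicate 1 (log2 difference 5.23, adjusted p = 0.0843 in edgeR), without replicate 2 (3.60, adjusted p = 0.159) or without replicate 4 (4.94, adjusted p = 0.101), and with scaling by library size only (2.86, adjusted p = 0.0921). The log2 differences of hnd-1 and mef-2 were 0.24 ± 0.67 and -0.30 ± 0.93 (edgeR adjusted p = 0.869 and 0.881), with intervals of -1.08 to 1.55 and -2.12 to 1.51. Without replicate 3 the log2 differences were 4.72 ± 0.18 for hlh-1, 4.03 ± 0.24 for unc-120 and 3.80 ± 1.00 for hlh-8, all called, and turned to -0.45 ± 0.47 for hnd-1 and 0.14 ± 0.33 for mef-2, both uncalled.

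**Figure D2:**
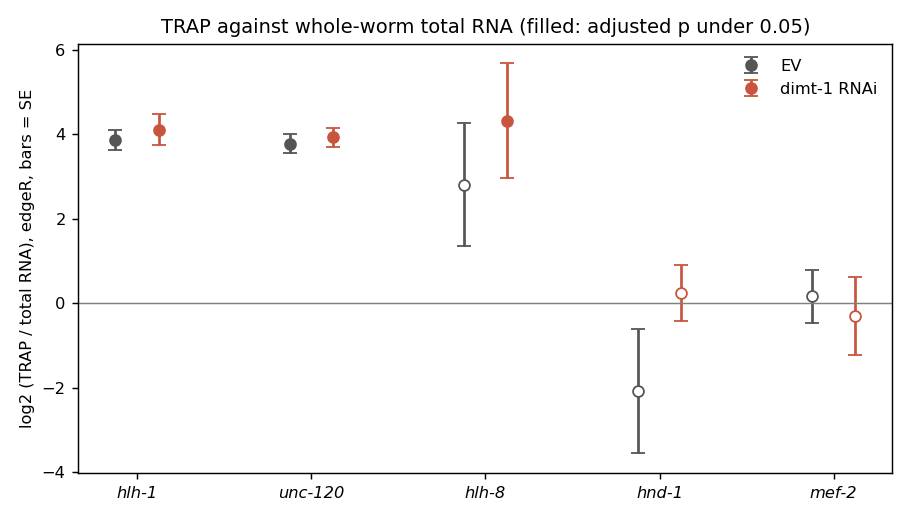
Log2 difference between TRAP and total RNA for each factor, from edgeR, with bars of 1 SE (n = 4 libraries per group). Filled points have an adjusted p under 0.05, with EV in grey and dimt-1 RNAi in red. The genes hlh-1 and unc-120 lie near 4 on either RNAi with short bars, hlh-8 is filled on dimt-1 RNAi, and the bars of mef-2 cross 0 on either RNAi while those of hnd-1 cross it on dimt-1 RNAi.

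The size of these differences depends on the scaling. The median log2 difference of all genes tested was -0.26 on EV and -0.14 on dimt-1 RNAi with TMM, and -1.68 and -1.56 with scaling by library size only. With library size only, the log2 differences of hlh-1 were 2.44 and 2.71 and those of unc-120 were 2.34 and 2.50 on EV and dimt-1 RNAi, still called, while mef-2 on EV turned to -1.27 and hnd-1 on dimt-1 RNAi to -1.16, both uncalled.

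A list of 18 partners and upstream or lineage regulators of the 5 factors was examined in the same fits. On EV 5 of 18 tested were called higher in TRAP and 3 lower, beside 17.6% and 21.9% of all genes. The median log2 difference was 0.04 against -0.26 for all genes tested. On dimt-1 RNAi 4 of 17 tested were called higher and 1 lower, beside 17.2% and 10.9% of all genes. The median there was 0.18 against -0.14. The genes called higher on either RNAi were the Hox genes mab-5 and lin-39, the Six-type homeobox gene ceh-34 and the kinase gene kin-29. The zinc-finger gene sem-4 was called on EV and not on dimt-1 RNAi, with log2 differences of 1.09 ± 0.38 and 0.71 ± 0.25 (edgeR adjusted p = 0.0445 and 0.0517), was called on EV in 6 of 12 alternatives and turned to -0.37 there with library size only.

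The gene mab-5, which patterns the posterior body including the M lineage, was at 24.4 to 41.7 CPM in TRAP on EV and 1.17 to 2.99 CPM in total RNA. Its log2 difference was 4.06 ± 0.35 on EV and 3.88 ± 0.39 on dimt-1 RNAi (edgeR adjusted p = 7e-06 and 1.05e-05). The gene ceh-34 was at 14.5 to 28.2 CPM in TRAP on EV and 1.26 to 2.06 CPM in total RNA, with log2 differences of 3.63 ± 0.34 and 3.46 ± 0.32. The groups were apart for both genes, and both were called in 12 of 12 alternatives on either RNAi. The log2 differences of lin-39, a Hox gene of the mid-body that also acts in the M lineage, were 1.94 ± 0.28 and 2.48 ± 0.21, and those of kin-29, the salt-inducible kinase that regulates MEF-2, were 1.79 ± 0.18 and 1.81 ± 0.19. With library size only, lin-39 was not called on EV (0.51, adjusted p = 0.186 in edgeR) and kin-29 on neither RNAi (0.36 and 0.37).

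The histone deacetylase gene hda-4, which acts with mef-2, had log2 differences of -0.20 ± 0.27 and 0.14 ± 0.28 and was not called. The E-protein gene hlh-2, whose product pairs with HLH-8, was at 15.1 to 28.6 CPM in TRAP on EV and 33.1 to 35.2 CPM in total RNA. It was called lower on EV at -0.68 ± 0.19 and not on dimt-1 RNAi at -0.13 ± 0.26 (edgeR adjusted p = 0.0159 and 0.81), and the call on EV was made in 10 of 12 alternatives and lost without replicate 1 (adjusted p = 0.0753 in edgeR) or replicate 3 (adjusted p = 0.0799). The Caudal-type gene pal-1, which acts upstream of hlh-1 in the embryo, was lower in TRAP on either RNAi, at 51.4 to 57.5 CPM on EV against 136.9 to 158.6 CPM in total RNA, with log2 differences of -1.43 ± 0.09 and -0.94 ± 0.11, and was called in 12 of 12 alternatives on either RNAi. The Schnurri-type gene sma-9 was called lower on EV at -0.56 ± 0.13. The remaining 10 genes (ceh-20, eya-1, fozi-1, let-381, lin-12, mls-1, mls-2, sem-2, unc-62 and hda-4) were not called on either RNAi, and let-381 was not tested on dimt-1 RNAi. Among them mls-1 was at 3.84 on EV (edgeR adjusted p = 0.0594) and was called in 3 of 11 alternatives. On dimt-1 RNAi it was at 1.39 and called in 0 of 11. There ceh-20 was at 0.83 (edgeR adjusted p = 0.0782) and called in 4 of 12. On EV sem-2 was at -1.73 and called in 2 of 11.

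A further 3 genes are known to act downstream of HLH-8. The homeobox gene ceh-24 was at 1.22 to 9.30 CPM in TRAP on EV and 0.138 to 0.597 CPM in total RNA, and at 1.80 to 8.88 against 0.327 to 0.514 CPM on dimt-1 RNAi. The fractions did not overlap, and its log2 differences were 3.49 ± 1.04 and 3.60 ± 0.65 (edgeR adjusted p = 0.0214 and 0.00121). The call on EV was made in 7 of 11 alternatives in which the gene was tested and that on dimt-1 RNAi in 12 of 12. The FGF receptor gene egl-15 had log2 differences of 0.52 ± 0.57 and 0.04 ± 0.53 and was not called, and arg-1, for a Notch ligand, was too low to be tested.

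As a contrast, 18 transcription factors of other tissues were examined. None of the 17 tested on EV or the 16 tested on dimt-1 RNAi was called higher in TRAP in edgeR. Of all genes 17.6% and 17.2% were called higher, and 0 of the list were in each of the 12 alternatives. Lower calls were made for 5 and 2, near the 21.9% and 10.9% of all genes called lower. The median log2 differences were -0.62 and -0.54, against -0.26 and -0.14 for all genes tested. The epidermal factor genes nhr-23 and lin-26 were called lower on either RNAi, nhr-23 by -1.65 ± 0.48 and -1.28 ± 0.17 and lin-26 by -0.85 ± 0.11 and -0.56 ± 0.18. The neuronal factor genes unc-86, unc-30 and mec-3 were at 0 in all 4 EV TRAP libraries. A floor of 3 counts per library lay 9.53-fold, 8.20-fold and 4.03-fold below their mean in total RNA. That floor covers counting error only. It does not cover the swings of TRAP libraries between 0 and 100 or more, so it is no firm bound. On dimt-1 RNAi none of these 3 genes was at 0 in all 4 TRAP libraries, and no factor tested there was below -1.28. With the 3 genes at the floor on EV the median stayed at -0.62.

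Muscle of the pharynx is a separate cell type with its own myosins and troponins. Of 6 pharyngeal muscle genes, 1 was called higher and 3 lower on EV, beside 17.6% and 21.9% of all genes. On dimt-1 RNAi 0 were called higher and 2 lower, beside 17.2% and 10.9%. The median log2 differences were -0.68 and -0.65, against -0.26 and -0.14 for all genes tested. Over the main fit and the alternatives 1 to 5 were called lower on EV and 0 to 5 on dimt-1 RNAi. The pharyngeal myosin gene myo-2 was at -0.74 ± 0.15 and -0.77 ± 0.19. The other called genes were tnc-2 (-1.69 ± 0.54), myo-1 (-0.62 ± 0.22) and tni-4 (0.71 ± 0.18) on EV and tnt-4 (-0.95 ± 0.26) on dimt-1 RNAi. Of 41 genes for bHLH proteins, the family of hlh-1, hlh-8 and hnd-1, 27 were tested on either RNAi. Of these 6 were called higher on each, beside 17.6% and 17.2% of all genes. Called lower were 1 and 2, beside 21.9% and 10.9%. Besides hlh-1 and, on dimt-1 RNAi, hlh-8, the largest were mxl-3 (2.25 ± 0.10 and 2.11 ± 0.16) and mdl-1 (1.89 ± 0.11 and 1.64 ± 0.13), which encode Max-type and Mad-type proteins, and on EV hlh-33 (2.51 ± 0.52).

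**Figure D3:**
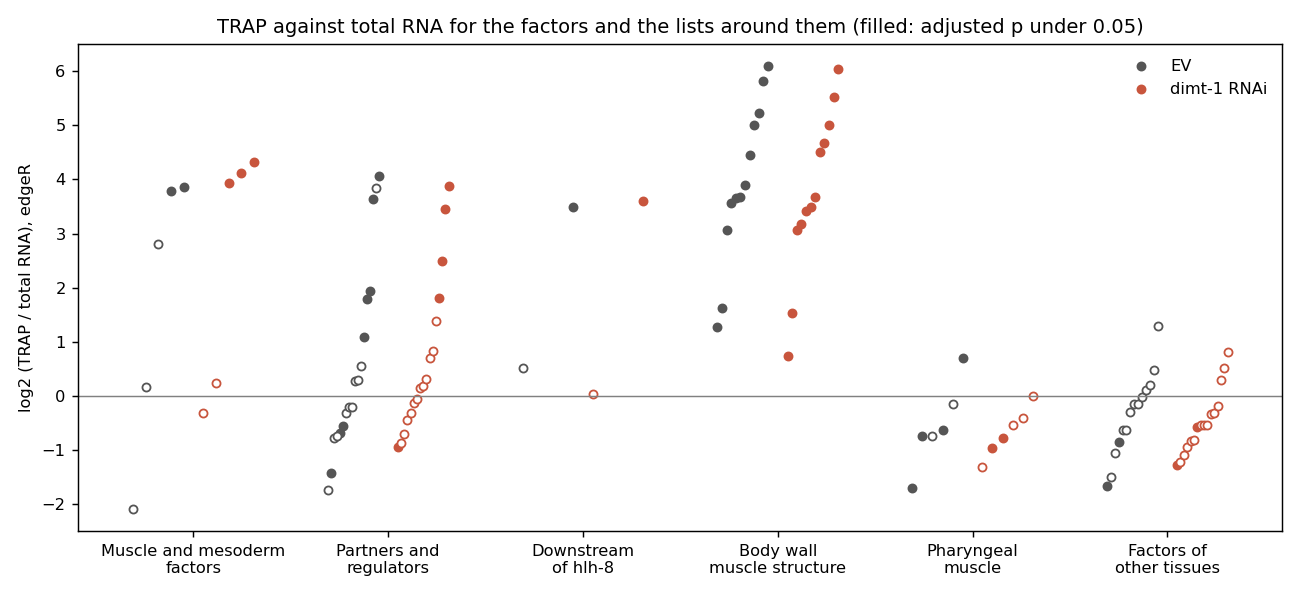
Log2 difference between TRAP and total RNA, from edgeR, for the 5 factors and for the lists around them. Each point is a gene, sorted by value within its list, filled where the adjusted p is under 0.05, with EV in grey and dimt-1 RNAi in red, and genes at 0 in all 4 TRAP libraries of a group are left out. All 12 body wall muscle genes lie above 0 and filled, and no filled gene of the other tissues lies above it.

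The next comparison asks whether the whole-worm level of the factors changed on dimt-1 RNAi. In total RNA 0 of 5 factors were called, and 0 of 15441 genes (0%) were called in edgeR in either direction, with 2504 genes at an unadjusted p under 0.05. DESeq2 called 647 genes and limma voom with library quality weights called 1601. None of the 5 factors had groups without overlap, beside 4.06% of genes that were lower and 2.69% that were higher in every dimt-1 RNAi library.

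The gene hnd-1 had the smallest p of the 5. Its means were 2.53 ± 0.99 CPM on dimt-1 RNAi and 4.35 ± 0.43 CPM on EV (SD, n = 4), and 3 of the 4 dimt-1 RNAi libraries (1.58, 2.80 and 1.93 CPM) lay below all EV libraries, while replicate 3 (3.80 CPM) lay within the EV range of 3.71 to 4.65 CPM. The log2 difference was -0.75 ± 0.26 (edgeR adjusted p = 0.197). Without dimt-1 RNAi replicate 3 it was -0.996 ± 0.244 (edgeR adjusted p = 0.011), a call in the lower direction, where 8.03% of 15845 genes were called lower and 6.99% higher. That replicate was singled out from these data. As it was the only dimt-1 RNAi library in the EV range of hnd-1, its removal set the groups apart. In 7 of the 8 fits that left out 1 replicate, hnd-1 was uncalled. With all libraries, limma voom with library quality weights gave -0.99 and an adjusted p of 0.0216.

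The gene hlh-1 followed the same order of libraries in part. On dimt-1 RNAi its replicates 1, 2 and 4 (1.96, 2.31 and 1.84 CPM) lay below the EV range of 2.92 to 3.79 CPM and replicate 3 (4.72 CPM) lay above it. The log2 difference was -0.25 ± 0.30 (edgeR adjusted p = 0.73) with all libraries and -0.64 ± 0.25 (edgeR adjusted p = 0.0989) without replicate 3, so that the call was not reached in either fit. The log2 differences of unc-120 and mef-2 were -0.10 ± 0.18 and -0.08 ± 0.20 (edgeR adjusted p = 0.835 and 0.88), with intervals of -0.46 to 0.26 and -0.48 to 0.31. That of hlh-8, with 0 counts in 2 libraries, was -0.84 ± 1.30 (edgeR adjusted p = 0.801, interval -3.40 to 1.71) and could not show a change at this depth. Without replicate 3 the log2 differences of unc-120, mef-2 and hlh-8 were -0.12 ± 0.20, -0.11 ± 0.23 and -0.44 ± 1.23, uncalled as before.

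Genes of the embryo and of the intestine moved in the same libraries. The summed level of 9 embryo genes in total RNA (of 10 listed, with 1 to 3 of the 9 at 0 in a library) was 12.5, 9.72, 14.6 and 9.13 CPM on EV and 3.51, 6.87, 11.2 and 3.45 CPM on dimt-1 RNAi. The 3 lower dimt-1 RNAi libraries were replicates 1, 2 and 4, as for hnd-1 and hlh-1, and replicate 3 again lay within the EV range. The summed level of 6 intestine markers (0 of them at 0) was 13030, 15050, 13500 and 12870 CPM on EV and 8563, 9238, 14250 and 10740 CPM on dimt-1 RNAi, again with replicate 3 within the EV range and the others below it. Sperm transcripts moved the other way, with a summed level of 7 sperm genes (0 to 2 of them at 0) at 23.8 to 26.2 CPM on EV and at 99.2, 53.3, 22.8 and 113.8 CPM in replicates 1 to 4 of dimt-1 RNAi. The part of embryo, intestine and sperm transcripts or of the level of the targeted gene in the levels of hnd-1 and hlh-1 was not tested.

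Among the 18 partners and regulators, 0 were called in total RNA with all libraries, with a median log2 difference of -0.14 against 0.01 for all genes tested. Without replicate 3 of dimt-1 RNAi 4 of 18 were called lower and 0 higher, beside 8.03% and 6.99% of all genes. The median there was -0.11 against 0.02. Those called lower were the Pbx-type gene ceh-20 (-0.79 ± 0.16), the Eyes absent gene eya-1 (-1.18 ± 0.28), hlh-2 (-0.39 ± 0.08) and the Notch receptor gene lin-12 (-0.80 ± 0.16). In the same fit 3 of 7 embryo genes tested and 5 of 6 intestine markers were called lower, and 5 of 7 sperm genes, 5 of 6 pharyngeal muscle genes and 2 of 12 body wall muscle genes were called higher. Replicate 3 was left out after seeing these data, in which it lay within the EV range for the embryo and intestine sums. All of these calls rest on that choice, and with all libraries 0 of 15441 genes were called in edgeR.

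**Figure D4:**
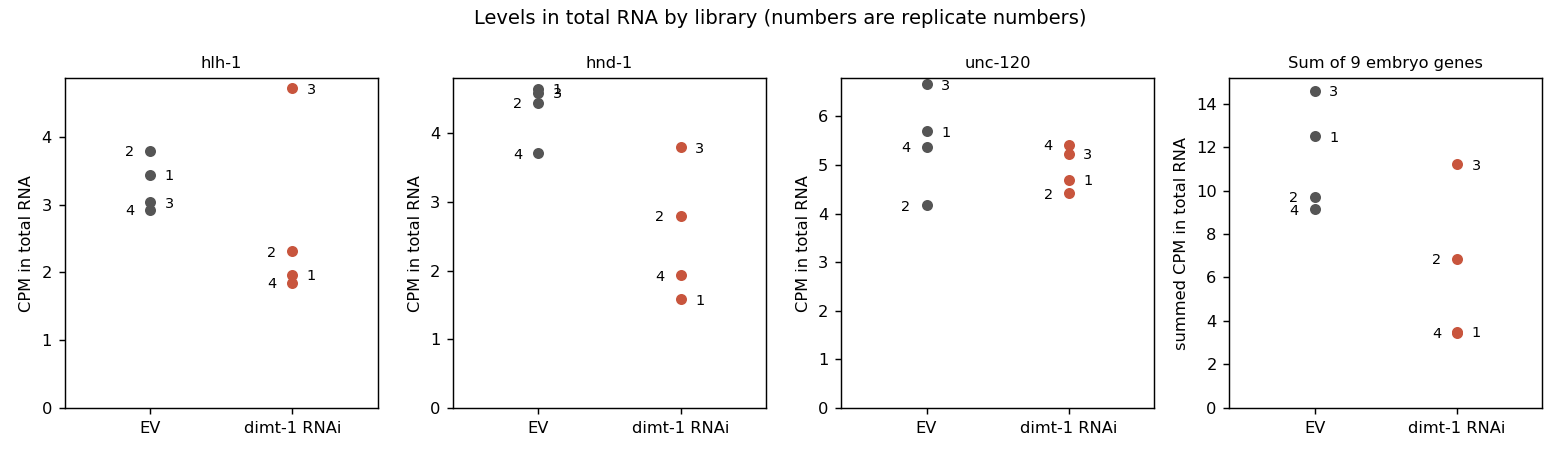
Levels in total RNA of hlh-1, hnd-1 and unc-120 and the summed level of 9 embryo genes, in CPM, with each library marked by its replicate number (EV grey, dimt-1 RNAi red, axes from 0). Replicate 3 of dimt-1 RNAi is the highest of its group for hlh-1 (4.72 CPM), hnd-1 (3.80 CPM) and the embryo genes (11.2 CPM), and unc-120 does not show this order.

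On muscle ribosomes no factor passed the test for a change on dimt-1 RNAi. In the comparison of TRAP on dimt-1 RNAi with TRAP on EV 0 of 5 were called, as were 0 of 12164 genes in edgeR, with 976 genes at an unadjusted p under 0.05, 164 called by DESeq2 and 128 by limma voom. The mean level of hlh-1 was 46.6 ± 15.5 CPM on dimt-1 RNAi and 47.6 ± 12.6 CPM on EV, with a log2 difference of -0.06 ± 0.26 (95% interval -0.57 to 0.46). That of unc-120 was 74.9 ± 24.3 and 74.9 ± 17.4 CPM, with a log2 difference of -0.02 ± 0.23 (interval -0.46 to 0.42). The intervals of these genes were narrower than those of the lower ones.

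The log2 difference in TRAP was 0.59 ± 1.39 for hlh-8 (interval -2.13 to 3.31), 1.53 ± 1.75 for hnd-1 (interval -1.89 to 4.95) and -0.62 ± 1.23 for mef-2 (interval -3.04 to 1.79), and the edgeR adjusted p-values of the 5 factors were 0.963 to 1.00. The groups overlapped for each of the 5 genes, beside 4.92% of genes higher and 2.03% lower in every dimt-1 RNAi library. For hnd-1 the mean of 2.96 ± 2.88 CPM on dimt-1 RNAi was raised by replicate 3 at 7.25 CPM, and 2 EV libraries were at 0. Without replicate 3 the log2 differences were 0.15 ± 0.23 for hlh-1, 0.05 ± 0.25 for unc-120, 0.47 ± 1.46 for hlh-8, 0.58 ± 1.92 for hnd-1 and -0.20 ± 0.82 for mef-2, with 0 of 5 called. For hlh-8, hnd-1 and mef-2 the different detection of low counts in the TRAP libraries cannot be told apart from the RNAi. Leaving out replicate 3, the dimt-1 RNAi TRAP library most like EV in this, makes that more so.

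The last comparison, the interaction of fraction and RNAi over the 16 libraries, asks whether the ratio of TRAP to total RNA differed between dimt-1 RNAi and EV. It was called for 0 of 5 factors and for 0 of 15897 genes in edgeR, with 2183 genes at an unadjusted p under 0.05 and 330 called by DESeq2. The difference of log2 ratios was 0.24 ± 0.41 for hlh-1, 0.14 ± 0.29 for unc-120, 1.52 ± 1.93 for hlh-8, 2.32 ± 1.57 for hnd-1 and -0.47 ± 1.22 for mef-2 (edgeR adjusted p = 0.614 to 0.974). Without replicate 3 it was 0.85 ± 0.29 for hlh-1 (edgeR adjusted p = 0.148), 0.24 ± 0.32 for unc-120, 0.99 ± 1.93 for hlh-8, 1.64 ± 1.68 for hnd-1 and -0.02 ± 0.78 for mef-2, with 0 of 5 called. Thus hlh-8, called against total RNA on dimt-1 RNAi and not on EV, was not shown to differ between them. The limit from detection of low counts in TRAP holds here too for hlh-8, hnd-1 and mef-2.

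The pattern over libraries was compared between the factors, from the same values as their levels. Over the 16 libraries Pearson's r of log2 CPM was 0.975 between hlh-1 and unc-120, 0.619 and 0.647 between hlh-8 and these genes, and -0.445 and -0.515 between hnd-1 and them, while r of mef-2 with the other factors was -0.241 to -0.0943. Between hlh-8 and hnd-1 r was 0.00281, and hnd-1 and mef-2, alike in level, had an r of -0.0943. These values describe 16 libraries that share the gap between the 2 fractions and their differences in depth. Among 15896 other genes, the 3 most like hlh-1 were eif-1, aqp-2 and gmpr-1 (r of 0.992 to 0.993), and the 3 most like unc-120 were ZK1073.2, clp-1 and H10E21.5 (0.995 to 0.996). Those most like hlh-8 were M04C9.2, skr-3 and atfs-1 (0.866 to 0.895), those most like hnd-1 were F28D9.4, cyp-13B2 and frm-7 (0.969 to 0.982), and those most like mef-2 were C26D10.6, nhr-47 and F32D8.14 (0.977 to 0.981). For hlh-8, hnd-1 and mef-2 these values include libraries at 0 counts.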

How the data were processed

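Muscle TRAP and whole-worm total RNA were sequenced as stranded poly(A) libraries, and 16 libraries entered. The values the authors deposited are raw read counts for each gene, not normalized. Per the labels STAR 2.7.2b was used, and for these libraries the genome build, annotation and strand of the counting are not given in the sources used here. Symbols were matched for 43693 of 46748 identifiers, and positions were taken from the Ensembl annotation of WBcel235. Totals were 34794250 to 49782576 counts per library, and floors of 3 counts cover counting error only. Groups and replicate numbers came from the labels, 0 columns were unused, and no libraries were merged, since at least 11856 genes differed in count between any pair.

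Counts were tested with edgeR 4.0.16 in R 4.3.3 (filterByExpr with a minimum of 10, TMM, glmQLFit, glmQLFTest, no replicate block), each comparison of groups on its own 8 libraries and the interaction on 16, with Benjamini-Hochberg adjustment. The SE was taken as the log2 difference over the root of F. Levels used TMM over all 16 libraries, and correlations a prior count of 2. The test was tested on simulated data drawn from the fitted spread. The swings of low TRAP counts were not modelled apart, so that check does not bear on hlh-8, hnd-1 and mef-2 there. Alternatives were DESeq2's size factors, library size only, no filter, 10 counts in every library, DESeq2 1.42.0, limma 3.58.1 voom with quality weights, the replicate block, counts divided by 2 and leaving out each replicate. Leaving out EV replicate 2 with dimt-1 RNAi replicate 3 was chosen after seeing the data. So was giving values without dimt-1 RNAi replicate 3 beside the main ones. The 5 factors, the lists and the rule for named genes (the 5 factors, all partners and genes downstream of hlh-8, up to 4 called genes with the largest change per other list, and the 3 genes most alike) were chosen with earlier results of these data known.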

Additional observations from a re-analysis of the deposited data

Results flagged for a closer look

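In groups of 4 libraries, a library was singled out where its gap to the nearest other exceeded, as a share of the group's range, the critical value of Dixon's test. Of 20 groups (5 factors in 4 groups) 4 had such a library. The test expects about 1 in 20 for independent values with a normal spread. Here the groups share libraries and some hold low counts, so the number of flagged groups cannot be set against chance. In total RNA on dimt-1 RNAi, hlh-1 was at 4.72 CPM in replicate 3 and at 1.84 to 2.31 CPM in the others (gap 0.837 of the range). In TRAP on dimt-1 RNAi, hnd-1 was at 7.25 CPM in replicate 3 and at 1.18 to 2.01 CPM in the others (0.863), from 160 counts against 32 to 56. In TRAP on dimt-1 RNAi, unc-120 was at 111 CPM in replicate 2 and at 58.9 to 65.0 CPM in the others (0.883). In total RNA on EV, hlh-8 was at 0.605 CPM in replicate 1 and at 0.141 to 0.207 CPM in the others (0.859), from 38 counts against 9 to 13.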

How the results depend on the processing

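The calls of hlh-1 and unc-120 in TRAP against total RNA held in each alternative on either RNAi, with log2 differences of 2.34 to 4.72. The ratio of the mean levels of unc-120 in TRAP and total RNA on EV was 13.7, and 5.08 with library size only. In total RNA the count of factors called on dimt-1 RNAi against EV was 0, and 1 (hnd-1) with limma voom and with EV replicate 2 and dimt-1 RNAi replicate 3 both left out, and 0 to 1 leaving out each replicate (1 without dimt-1 RNAi replicate 3). DESeq2 called hlh-8 on EV (2.93, adjusted p = 0.049). The other values that changed direction were all uncalled. In TRAP against total RNA, mef-2 on EV became -1.27 with library size only and -0.0618 with limma voom, and ranged from -0.0830 to 0.40 leaving out each replicate; on dimt-1 RNAi it ranged from -0.57 to 0.14, and hnd-1 became -1.16 with library size only and -0.34 with limma voom, and ranged from -0.45 to 0.56. In total RNA on dimt-1 RNAi against EV, mef-2 ranged from -0.18 to 0.0043. In TRAP on dimt-1 RNAi against EV, hlh-1 became 0.0428 with library size only and 0.0365 with limma voom (-0.23 to 0.15 leaving out each replicate), and unc-120 became 0.0888 with library size only and 0.0273 with both doubted replicates left out (-0.26 to 0.13). The interaction of unc-120 became -0.0023 with DESeq2's size factors and -0.0026 with DESeq2 (-0.16 to 0.29 leaving out each replicate). The causes were not tested.

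The count of genes called moved by over 1.5 times as follows. In TRAP against total RNA, library size only gave 8461 genes against 5437 on EV and 8852 against 4162 on dimt-1 RNAi. In total RNA on dimt-1 RNAi against EV, 0 became 346 with no filter, 647 with DESeq2, 1601 with limma voom, 2379 without dimt-1 RNAi replicate 3 and 1782 with EV replicate 2 left out as well. In TRAP it became 177 with no filter, 8 with 10 counts in every library, 164 with DESeq2, 128 with limma voom, 2 with counts divided by 2, 49 without dimt-1 RNAi replicate 3 and 33 with both left out. For the interaction it became 9 with library size only, 330 with DESeq2, 215 with both left out, 42 without dimt-1 RNAi replicate 3, and 6, 4 and 46 without EV replicates 1, 3 and 4. With 10 counts in every library, factors with a library under 10 were not tested.

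Same-numbered TRAP and total RNA libraries did not deviate together on EV (r of -0.0102 to 0.0178) and did so in part on dimt-1 RNAi (0.0302 to 0.258, each best with its own number, a hint of pairing from the data). As not every pair there was over the limit of 0.1, the main fit had no block. With the replicate block hlh-8 on dimt-1 RNAi was at 5.38 (adjusted p = 0.0611, uncalled), mef-2 on EV became -0.0344 and hnd-1 on dimt-1 RNAi -0.0859, and 1 gene was called in total RNA on dimt-1 RNAi against EV. No other call among the 5 factors changed under the block.

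Low counts limit what can be said of hlh-8, hnd-1 and mef-2, which rest on 0 to 173 counts per TRAP library.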
